A study of Mus musculus with 12 samples.

Results

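Cholesterol synthesis, uptake and efflux was examined as a set of 31 genes, found by gene name among the 54532 genes listed in each of the 2 deposited expression tables. The set holds 18 enzymes of the synthesis pathway, 4 genes that control the SREBP transcription factors, 5 genes of sterol uptake and carriage within the cell, and 4 genes of the LXR receptors and efflux. All 31 were found in both tables, and 30 passed the filter of a mean of at least 0.5 FPKM (a read count divided by gene length in kilobases and by a depth term for the library) over the 6 libraries of a comparison. Fdps, farnesyl diphosphate synthase, was the exception.

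RNA of whole kidneys of C57BL/6 mice was sequenced, in 12 libraries that form 4 groups of 3. In the first table, β-catenin-/- mice and wild-type controls had unilateral ureteral obstruction (UUO), in which the left ureter is tied off for good. In the second, mice labelled CD44-/- and wild-type controls had unilateral ischemia-reperfusion injury (UIRI), in which the blood supply of the left kidney is clamped and released. All 4 groups were therefore injured, and no uninjured kidney is in these comparisons. β-catenin was deleted by Cre under the Cadherin-16 promoter, and the controls carried no Cre. The study reports loss of β-catenin in distal tubules and collecting ducts. For proximal tubules, its staining results describe loss in most of them, and its discussion only a partial loss. The methods describe purchased C57BL/6 mice as young adult males. For UIRI they describe removal of the right kidney shortly before the end, which falls in the second week after surgery. None of this is tied to the libraries labelled CD44-/-, whose line is not described. The methods give no time for UUO.

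Cells make cholesterol from acetyl-CoA through mevalonate, isoprenoids, squalene and lanosterol. When membrane sterol falls, SCAP carries SREBP-2 from the endoplasmic reticulum to the Golgi, where it is cut and released to switch on the enzymes of the pathway and INSIG1, whose protein holds SCAP back again. When sterol is plentiful, oxysterols activate the LXR receptors, which switch on the exporters ABCA1 and ABCG1 and MYLIP, a ubiquitin ligase that degrades lipoprotein receptors. Tubule cells of the kidney take up filtered lipid carriers and also make sterol, and macrophages use the exporters to shed it.

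The libraries held 15940405 to 20737443 reads assigned to genes. Ctnnb1, which encodes β-catenin, was at 84.7, 71.4 and 71.7 FPKM in the β-catenin-/- kidneys and at 91.2, 86.7 and 98.5 FPKM in their controls. Every β-catenin-/- kidney was below every control, but the difference did not pass the limma test (adjusted p = 0.189). Cd44 was at 19.0, 11.97 and 13.9 FPKM in the kidneys labelled CD44-/- and at 19.9, 16.3 and 17.8 FPKM in their controls. These groups overlapped (adjusted p = 0.339 by limma), so the Cd44 level did not separate the labels. The gene-level value adds up reads of all exons, and which exons were deleted is not stated. The UIRI comparison is therefore given as that of libraries labelled CD44-/- against wild-type libraries, and each direction in it rests on that label.

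Promoter sequences were printed for 4 members that passed the test in either comparison, to show the letters that a search for sterol-related motifs found and missed. RefSeq promoters of GRCm38.p6, each from 250 bases before to 50 bases after a gene's start, were at hand for 25 of the 31 members. None was at hand for Fdps, Fdft1, Sqle, Stard4, Npc1 or Abcg1, so these were not searched. Each stretch shown begins 250 bases before the RefSeq start, ends before the annotated gene body, and has in capitals each match on either strand to TCACNCCAC (a form of the sterol regulatory element bound by SREBP) or to CCAAT (the box bound by NF-Y, read as ATTGG on the other strand).
Hmgcs1, chr13:119690101-119690350, plus strand: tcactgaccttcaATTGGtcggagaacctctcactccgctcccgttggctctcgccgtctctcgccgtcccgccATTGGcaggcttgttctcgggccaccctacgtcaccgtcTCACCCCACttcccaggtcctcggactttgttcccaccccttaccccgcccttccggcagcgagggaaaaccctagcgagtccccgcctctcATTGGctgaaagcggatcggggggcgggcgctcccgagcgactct
Insig1, chr5:28071162-28071362, plus strand: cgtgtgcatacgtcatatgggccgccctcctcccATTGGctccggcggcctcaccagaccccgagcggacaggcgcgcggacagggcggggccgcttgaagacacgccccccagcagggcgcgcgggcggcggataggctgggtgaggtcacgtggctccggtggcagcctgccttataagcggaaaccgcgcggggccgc
Hsd17b7, chr1:169969242-169969455, minus strand: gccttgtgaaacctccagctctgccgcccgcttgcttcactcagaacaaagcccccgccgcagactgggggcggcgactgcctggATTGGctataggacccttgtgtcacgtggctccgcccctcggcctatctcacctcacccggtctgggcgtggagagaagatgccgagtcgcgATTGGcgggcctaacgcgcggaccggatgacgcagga
Lss, chr10:76531355-76531587, plus strand: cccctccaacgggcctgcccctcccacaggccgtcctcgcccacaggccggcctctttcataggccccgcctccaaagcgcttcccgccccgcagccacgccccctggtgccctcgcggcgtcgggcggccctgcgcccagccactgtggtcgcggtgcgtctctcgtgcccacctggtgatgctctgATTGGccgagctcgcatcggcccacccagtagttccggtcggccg

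TCACNCCAC was found in the promoter of 1 of the 25 members searched, Hmgcs1, beginning 137 bases before the start. It was in 1.24% of all 32851 promoters in the table. CCAAT was found in promoters of 20 of the 25 members, or in 62.5% of their 32 listed promoters, against 37.4% of all promoters. The promoters of Insig1, Hsd17b7 and Lss held CCAAT and no TCACNCCAC in this window. The matches to the 2 motifs did not overlap in Hmgcs1. An exact direct repeat of AGGTCA with 4 bases between, 1 form of the LXR element, was in no promoter of the 25 members searched. It was in 5 of all 32851 promoters (0.0152%). Elements that depart from these letters were not searched, so a miss does not show that a promoter lacks an LXR element. The exporter Abcg1 was not among those searched. These matches are letters in a window and not bound sites.

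**Figure D1:**
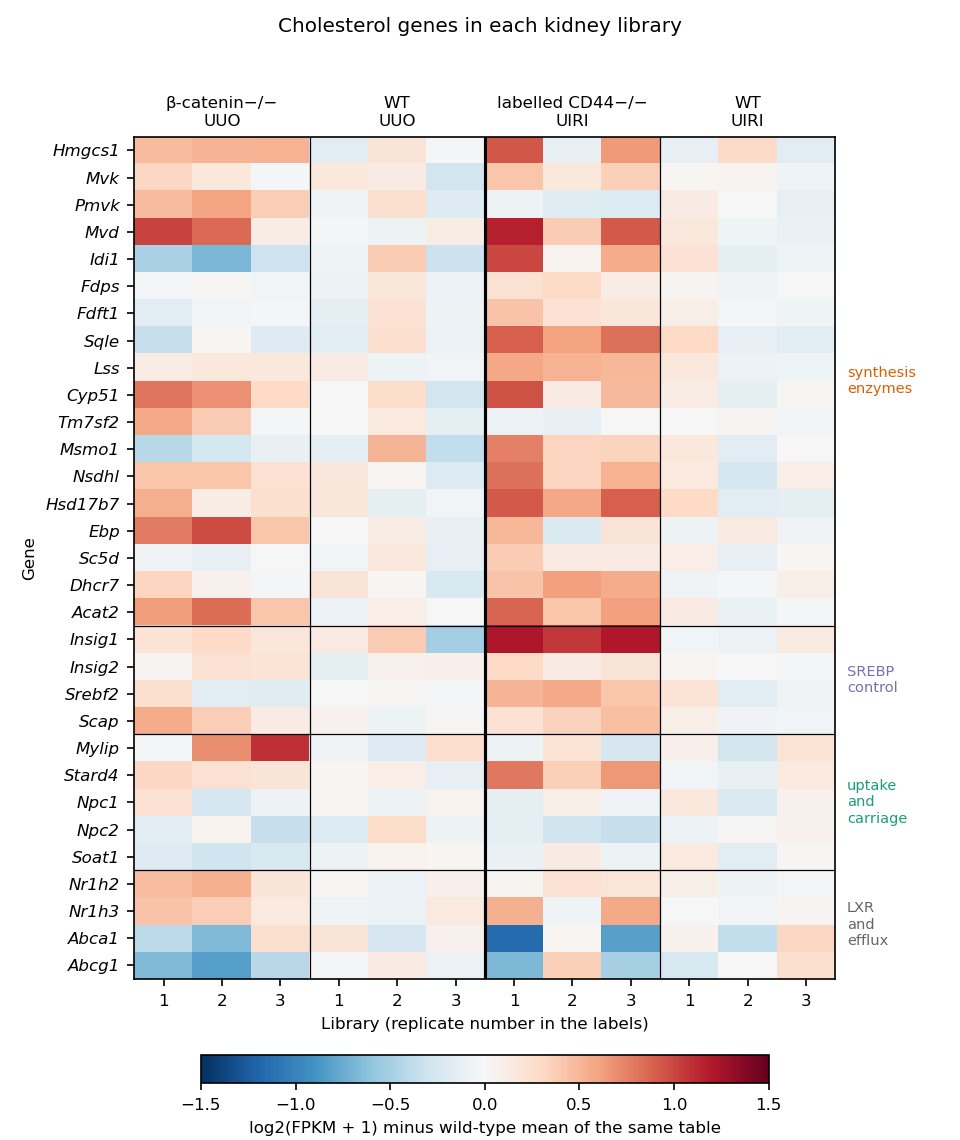
Level of each of the 31 genes in each of the 12 kidney libraries, as log2(FPKM + 1) minus the mean of the 3 wild-type libraries of the same table, with genes in rows by role and libraries in columns. Red is above and blue below the wild-type mean. Insig1 is red in all 3 of the libraries labelled CD44-/-, and Abcg1 is blue in every β-catenin-/- library.

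The first question was whether the cholesterol genes differed between β-catenin-/- and wild-type kidneys after UUO. Hmgcs1, Ebp and Acat2, all enzymes of synthesis, were higher in β-catenin-/- kidneys, and the exporter Abcg1 was lower. The other 26 of 30 tested members did not pass the adjusted test. Thus 3 members were called higher, against 6.21% of all 16166 genes tested, and 1 was called lower, against 4.36%. At an unadjusted p under 0.05 these counts were 10 and 3, against 17% and 12.9% of all genes, and by voom on recovered reads 3 and 1, against 7.37% and 6.56%. Calls are those with a Benjamini-Hochberg adjusted p under 0.05 by limma on log2(FPKM + 1), and fold changes are on that scale, which understates changes of low genes.

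Hmgcs1 (chr13:119690379-119708260), which joins acetyl-CoA and acetoacetyl-CoA into HMG-CoA, was at 61.1, 62.7 and 63.2 FPKM in β-catenin-/- kidneys and at 38.7, 50.1 and 43.0 FPKM in wild-type kidneys. The groups did not overlap, and the 3 β-catenin-/- values were close together. The log2 fold change was 0.50 (SE 0.126, adjusted p = 0.0485). Acat2 (chr17:12942890-12960747), the cytosolic thiolase that makes acetoacetyl-CoA for that step, was at 29.3, 34.3 and 25.2 FPKM in β-catenin-/- kidneys and at 17.6, 20.0 and 18.6 FPKM in wild-type kidneys. It was higher in all 3 β-catenin-/- kidneys than in any control, with a log2 fold change of 0.62 (SE 0.136, adjusted p = 0.0321). Acat2 shares 1477 bases at 97.7% identity with Acat3 and 445 bases at 98.65% identity with Tcp1. Reads may have been split among these genes, so the level of Acat2 is uncertain.

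Ebp (chrX:8185329-8193512), the sterol isomerase of the late pathway, was at 28.2, 32.5 and 21.6 FPKM in β-catenin-/- kidneys and at 15.9, 17.4 and 14.6 FPKM in wild-type kidneys. The lowest β-catenin-/- kidney was above the highest control, and the log2 fold change of 0.73 (SE 0.161, adjusted p = 0.0340) was the greatest of any member in this comparison. Abcg1 (chr17:31057698-31115777), which passes cholesterol to lipoproteins, was at 3.86, 3.37 and 4.80 FPKM in β-catenin-/- kidneys and at 6.55, 7.41 and 6.24 FPKM in wild-type kidneys. All 3 β-catenin-/- kidneys were below all controls, and Abcg1 fell by 0.63 on the log2 scale (SE 0.136, adjusted p = 0.0305).

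The synthesis enzymes did not move as a block after UUO. Of the 17 tested, 3 were called higher and none lower, beside 6.21% and 4.36% of all genes. The log2 fold change was positive in 12 and negative in 5, with a median of 0.30. In 6 of the 17 every β-catenin-/- library lay above every control, and over the whole set this held for 9 members, against 19.6% of all genes. The reverse held for 2 members, Soat1 and Abcg1, against 15.9%. Pmvk, phosphomevalonate kinase, did not overlap between groups, at 7.26, 7.999 and 6.67 FPKM in β-catenin-/- and 4.75, 6.05 and 4.23 FPKM in wild-type kidneys, but missed the adjusted test (adjusted p = 0.0710). Cyp51, the lanosterol demethylase, did not overlap either, at 21.7, 19.8 and 14.9 FPKM against 11.96, 14.7 and 9.72 FPKM (adjusted p = 0.0850). Mvd, mevalonate diphosphate decarboxylase, was at 24.1 and 21.3 FPKM in β-catenin-/- replicates 1 and 2 and at 12.4 FPKM in replicate 3, inside the control range of 10.8 to 12.5 FPKM (adjusted p = 0.109). Nsdhl, a sterol dehydrogenase, was 1.30 times its control mean and its groups did not overlap (adjusted p = 0.118).

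Of the enzymes with negative estimates, which were Idi1, Fdft1, Sqle, Msmo1 and Sc5d, none passed the test. Idi1, which isomerizes isopentenyl diphosphate, was at 3.37, 2.78 and 3.93 FPKM in β-catenin-/- kidneys and at 4.84, 6.95 and 3.90 FPKM in controls, with a log2 fold change of -0.49 (adjusted p = 0.145). Sqle, squalene epoxidase, was at 14.6, 19.2 and 16.4 FPKM against 16.8, 22.6 and 17.7 FPKM, and the groups overlapped (adjusted p = 0.489). The methyl sterol oxidase Msmo1 had a log2 fold change of -0.26 and squalene synthase, Fdft1, one of -0.07. The remaining tested enzymes (Mvk, Lss, Tm7sf2, Hsd17b7, Sc5d and Dhcr7) had log2 fold changes from -0.06 to 0.31, with adjusted p-values from 0.232 to 0.759.

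None of the 4 SREBP control genes passed the test after UUO. Insig1 was at 6.99, 7.48 and 6.77 FPKM in β-catenin-/- and at 6.60, 7.97 and 3.84 FPKM in wild-type kidneys, so only control replicate 3 stood apart. Srebf2, which encodes SREBP-2, was at 16.05 ± 2.87 FPKM (SD, n = 3) against 16.3 ± 0.237 FPKM. Scap was higher in all 3 β-catenin-/- libraries, at 12.1 ± 1.93 against 9.19 ± 0.490 FPKM (SD, n = 3), with an adjusted p of 0.129 by limma.

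Uptake and carriage genes likewise gave no call. Mylip varied most between β-catenin-/- kidneys, at 23.9, 39.8 and 52.9 FPKM, with controls at 23.3, 21.1 and 29.0 FPKM (adjusted p = 0.205). Replicates 2 and 3 lay above all controls, and replicate 1 lay among them. Soat1, which esterifies cholesterol for storage, was lower in every β-catenin-/- library, at 5.95, 5.41 and 5.75 FPKM against 6.49, 7.21 and 7.06 FPKM, without passing the test (adjusted p = 0.152). Stard4, a soluble sterol carrier, had a log2 fold change of 0.24. Npc1 and Npc2, which move cholesterol out of lysosomes, had ones of -0.04 and -0.15. Of the receptors, Nr1h2 (LXRβ) was at 40.4 ± 5.01 against 30.2 ± 1.76 FPKM (SD, n = 3) and Nr1h3 (LXRα) at 18.04 ± 1.88 against 14.3 ± 1.43 FPKM, with adjusted p-values of 0.0861 and 0.142 by limma. Abca1, the other exporter, was at 15.2, 12.6 and 24.4 FPKM against 23.5, 17.1 and 21.4 FPKM and overlapped its controls.

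The 4 calls after UUO were close to the threshold. Leaving out any of β-catenin-/- replicates 1 and 2 or wild-type replicates 1, 2 and 3 gave 0 member calls. Over all genes, these fits called 130 to 520 higher and 98 to 530 lower. Without β-catenin-/- replicate 3 there were 6 members higher and 1 lower, beside 1631 higher and 818 lower of all 16207 genes. Rescaling the FPKM so that each library summed to the same total (TPM) left Abcg1 as the sole member called. Over all 19472 genes then tested, 487 were called higher and 991 lower. The median log2 fold change of members moved from 0.19 to 0.02, while the median of all genes moved from 0.01 to -0.19.

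**Figure D2:**
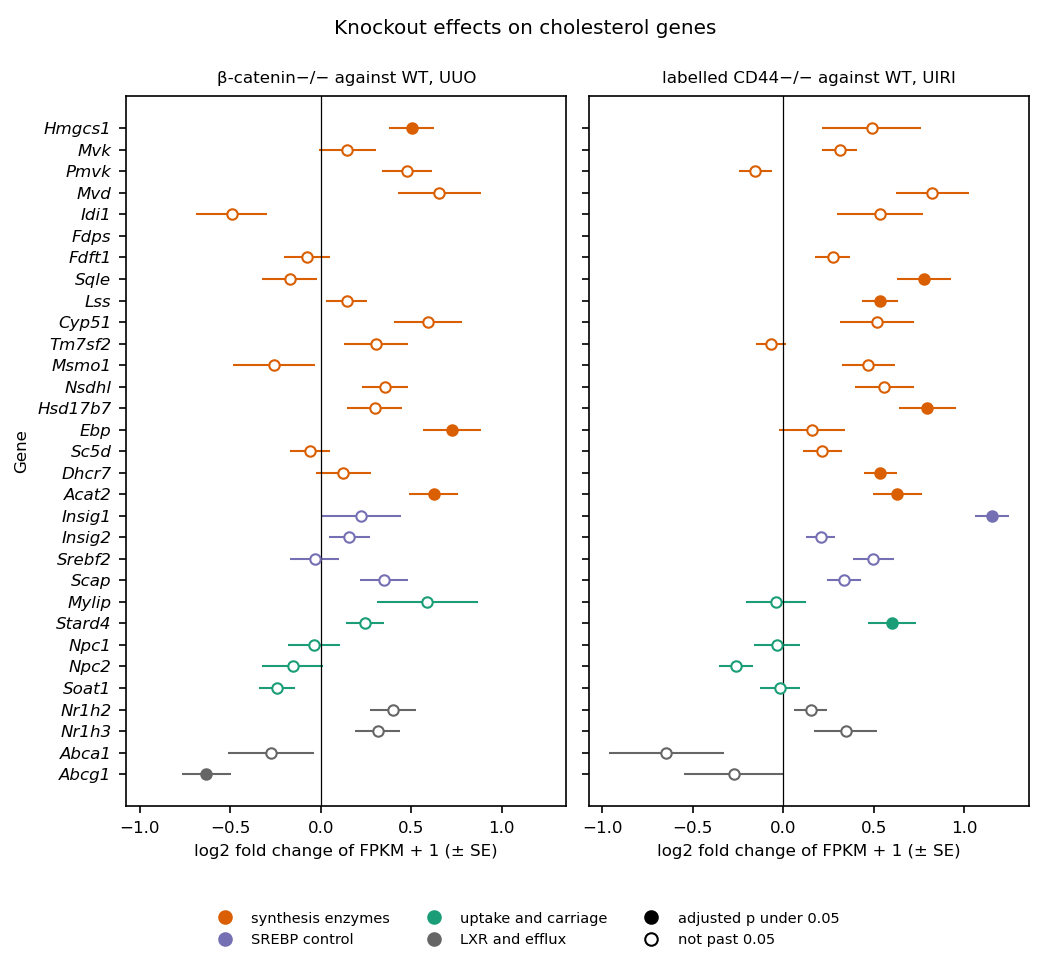
Log2 fold change of FPKM + 1 (horizontal axis, with SE) for each tested gene, with β-catenin-/- against wild-type kidneys after UUO on the left and kidneys labelled CD44-/- against wild-type after UIRI on the right. Filled points passed an adjusted p of 0.05 by limma (4 on the left, 7 on the right), colors give the role, and Fdps has no point because it was below the filter.

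The second question was whether the same genes differed between kidneys labelled CD44-/- and wild-type kidneys after UIRI. Here 7 of 30 members were called higher, against 4.02% of all 16113 genes tested, and 0 were called lower, against 2.19%. With the unadjusted p under 0.05, 16 were higher and 1 was lower, against 15.8% and 11.2% of all genes, and voom called 9 higher and 0 lower, against 6.12% and 4.31%. The 7 were Insig1, the enzymes Sqle, Lss, Hsd17b7, Dhcr7 and Acat2, and the sterol carrier Stard4. In 17 members every labelled library lay above every control, against 19.1% of all genes, and in 1 member (Npc2) every labelled library lay below, against 14.5%.

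Insig1 (chr5:28071363-28078662) had the smallest adjusted p of the set. It was at 17.2, 15.4 and 17.0 FPKM in the kidneys labelled CD44-/- and at 6.66, 6.38 and 7.61 FPKM in wild-type kidneys. The groups were far apart and tight within, with a ratio of means of 2.40 and a log2 fold change of 1.16 (SE 0.0930, adjusted p = 0.0167). It was called under 8 of 13 alternatives, with adjusted p-values from 0.00339 to 0.0831. Insig2, the related protein, was higher in all 3 labelled libraries, at 14.01 ± 0.926 against 11.997 ± 0.277 FPKM (SD, n = 3), with an adjusted p of 0.154 by limma. Srebf2 was at 21.9, 23.0 and 20.5 FPKM in the labelled and at 17.6, 13.5 and 14.6 FPKM in the wild-type kidneys, and was not called at an adjusted p of 0.0507. Scap was at 12.8 ± 1.14 against 9.94 ± 0.578 FPKM (SD, n = 3; adjusted p = 0.0759 by limma). Thus all 4 SREBP control genes lay above their controls in every labelled library, beside 19.1% of all genes. Of the 4, 1 was called higher, beside 4.02% of all genes.

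Among the synthesis enzymes, 5 of 17 tested were called higher, beside 4.02% of all genes, and 15 had a positive log2 fold change. In 12 the labelled libraries lay above all controls, beside 19.1% of all genes. The median log2 fold change was 0.52, and it was 0.0008 over all genes. Sqle (chr15:59315077-59331192), the first oxygen-dependent step of the pathway, was at 30.0, 24.2 and 28.5 FPKM in labelled and at 19.4, 14.2 and 13.8 FPKM in wild-type kidneys. The log2 fold change was 0.78 (SE 0.150, adjusted p = 0.0377). Lss (chr10:76531588-76557138), which closes the rings to lanosterol, was lowly expressed but tight, at 3.64, 3.46 and 3.40 FPKM against 2.46, 1.92 and 1.96 FPKM (log2 fold change 0.53, SE 0.101, adjusted p = 0.0362).

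Of the later steps, Hsd17b7 (chr1:169949535-169969241), a keto reductase of the demethylation steps, was at 8.15, 6.19 and 7.97 FPKM against 4.91, 3.32 and 3.40 FPKM (log2 fold change 0.80, SE 0.158, adjusted p = 0.0396). Dhcr7 (chr7:143823145-143848410), which makes cholesterol from its last precursor, was at 4.48, 5.24 and 4.95 FPKM against 2.91, 2.97 and 3.31 FPKM (log2 fold change 0.54, SE 0.0915, adjusted p = 0.0318). Neither gene's groups overlapped. At the entry of the pathway Acat2 was at 42.9, 30.9 and 35.6 FPKM against 25.2, 21.5 and 22.4 FPKM (log2 fold change 0.63, SE 0.134, adjusted p = 0.0460).

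Further enzymes lay above their controls without passing the test. Mvd was at 45.3, 25.7 and 38.0 FPKM against 21.9, 18.7 and 18.2 FPKM, with a log2 fold change of 0.82 (SE 0.202, adjusted p = 0.0609). The groups did not overlap, and labelled replicate 2 was nearest the controls. Mvk, Fdft1, Cyp51, Msmo1, Nsdhl and Sc5d also lay above their controls in all 3 labelled libraries, with log2 fold changes from 0.22 to 0.56 and adjusted p-values from 0.0872 to 0.242. Hmgcs1, called after UUO, overlapped here, at 119, 57.6 and 97.5 FPKM against 57.1, 76.2 and 54.9 FPKM (adjusted p = 0.298). Idi1 overlapped its controls in labelled replicate 2 alone, at 10.4, 4.91 and 7.40 FPKM against 5.62, 4.17 and 4.46 FPKM. Ebp, Pmvk and Tm7sf2 had log2 fold changes of 0.16, -0.15 and -0.07 and overlapped. Fdps, below the filter, held 41 to 49 reads in labelled and 26 to 32 reads in wild-type libraries, and its copies Gm3571 and Gm5873 can share its reads, so no fold is given.

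Of the uptake and carriage genes 1 of 5 was called. Stard4 was at 18.5, 13.4 and 16.7 FPKM in labelled and at 9.96, 9.42 and 11.4 FPKM in wild-type kidneys, with no overlap and a log2 fold change of 0.60 (SE 0.133, adjusted p = 0.0493). Npc2 was at 54.8, 48.7 and 47.1 FPKM against 56.8, 60.8 and 63.0 FPKM (adjusted p = 0.135). Mylip, Npc1 and Soat1 overlapped, with log2 fold changes between -0.04 and -0.02. None of the 4 LXR and efflux genes was called. Abca1 was at 3.94, 10.3 and 5.25 FPKM against 10.5, 7.51 and 12.7 FPKM, and Abcg1 at 2.40, 5.95 and 2.84 FPKM against 3.62, 4.42 and 5.41 FPKM. Labelled replicates 1 and 3 were below all controls for both exporters, and replicate 2 was not. Nr1h3 was above all controls in labelled replicates 1 and 3 and below them in replicate 2, at 22.0, 14.1 and 22.6 FPKM against 14.9, 14.4 and 15.3 FPKM.

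**Figure D3:**
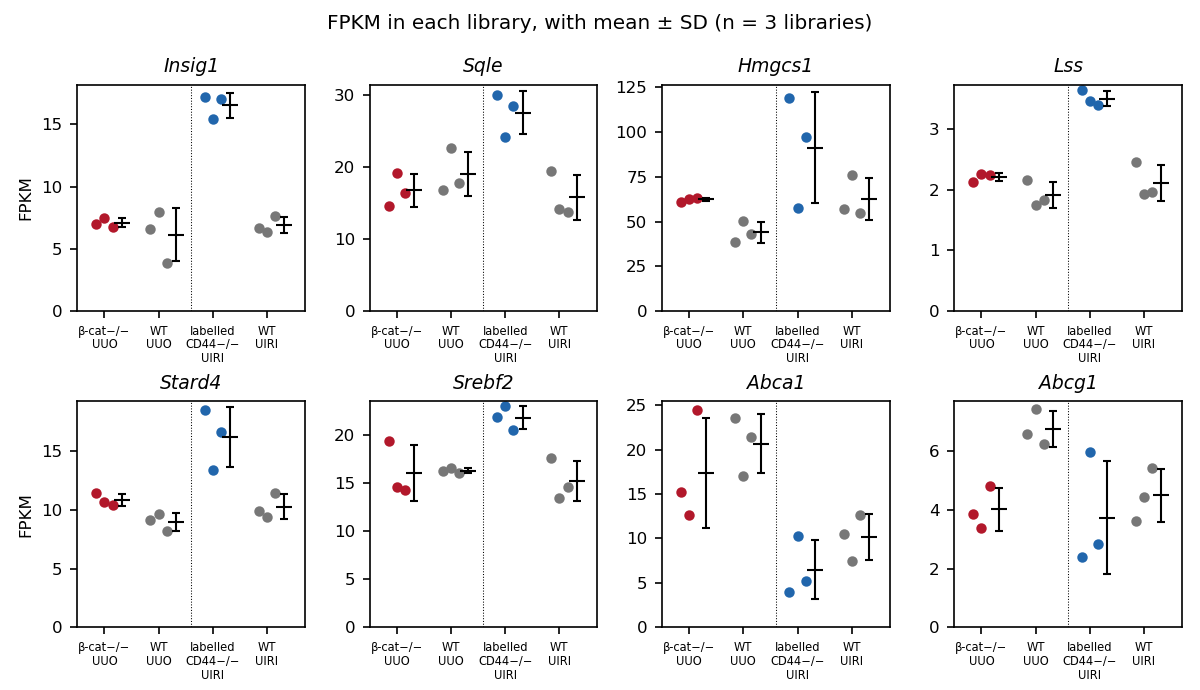
FPKM of 8 genes in each library (points), with the mean and SD of each group beside them (n = 3). Insig1, Sqle, Lss, Stard4 and Srebf2 show the 3 libraries labelled CD44-/- above their controls, Hmgcs1 shows tight β-catenin-/- values above controls, and in Abca1 and Abcg1 the labelled libraries split.

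The labelled libraries differed in the synthesis enzymes more than in the SREBP control genes. Over the tested synthesis enzymes the median level relative to the wild-type mean was 0.75, 0.22 and 0.50 on the log2 scale in labelled replicates 1, 2 and 3, and 0.12, -0.09 and -0.07 in the controls. Over the 4 SREBP control genes it was 0.40, 0.46 and 0.43 in the labelled and 0.06, -0.07 and -0.03 in the control libraries, so replicate 2 did not lie nearer the controls there. Leaving out labelled replicate 2 gave 14 members higher and 1 (Abca1) lower, beside 1417 higher and 763 lower of all 16128 genes. Leaving out labelled replicate 1 or 3, or wild-type replicate 1 or 2, gave 0 member calls. Over all genes, these fits called 0 to 3 higher and 1 to 3 lower. Leaving out wild-type replicate 3 left Insig1, beside 5 higher and 5 lower of all 16066 genes. Such fits called few genes of any kind, so their counts say little about the members. Insig1 was also the sole member called after rescaling to TPM, beside 153 higher and 349 lower of all 19102 genes. There the members' median was 0.22 and that of all genes -0.13.

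In bulk kidney RNA a change in the share of a cell type cannot be told apart from a change per cell. Proximal tubule markers (the highest were Kap, Slc27a2 and Slc34a1) summed to 15820, 5418 and 13070 FPKM in labelled replicates 1, 2 and 3 and to 3329 to 4537 FPKM in their controls, and 4 of 12 were called higher. The same markers summed to 5884 to 9594 FPKM in β-catenin-/- and 3368 to 6418 FPKM in wild-type kidneys after UUO, with 9 of 12 called higher. Most of each of these sums was Kap alone. Kap was at 4437 to 13680 FPKM in labelled libraries and 2672 to 3916 FPKM in their controls. After UUO its groups overlapped, at 3409 to 7727 FPKM in β-catenin-/- and 2597 to 5688 FPKM in wild-type kidneys. Macrophage and monocyte markers (the highest were Lyz2, C1qb and C1qa) summed to 796, 1385 and 777 FPKM in labelled replicates 1, 2 and 3 and to 2054 to 2135 FPKM in controls, with 8 of 12 called lower. After UUO they summed to 544 to 645 FPKM in β-catenin-/- and 1109 to 1357 FPKM in wild-type kidneys, with 11 of 12 called lower. Neither list had a gene at 0 in all libraries of a group. The 18 synthesis genes summed to 418, 268 and 348 FPKM in labelled replicates 1, 2 and 3 and to 225 to 248.9 FPKM in their controls. Labelled replicate 2 was thus nearest the controls in both marker sums and in the synthesis sum. Fibroblast markers were called lower in 4 of 8 after UUO and in 2 of 8 after UIRI. Of the other lists, 3 of 6 thick ascending limb and 2 of 4 tested hepatocyte markers were called higher after UUO, and 4 of 7 T and NK cell markers were called lower after UIRI. Of the hepatocyte list, Alb and Ahsg were below the filter after UUO, at means of 0.28 and 0.03 FPKM in β-catenin-/- kidneys. Mean Serpina1a was 37.2 against 4.86 FPKM, Ttr 29.0 against 2.75 FPKM and Apoh 3.60 against 1.29 FPKM. Fgb went the other way, at 8.51 against 12.6 FPKM. Each of the injured tubule, distal convoluted tubule, intercalated cell and endothelial lists had 1 gene called lower after UUO, the principal cell list had 1 called higher after UUO, and the hepatocyte list had 1 called higher after UIRI. Injured tubule markers summed to 590 to 835 FPKM in β-catenin-/- and 918 to 1618 FPKM in wild-type kidneys after UUO, with no overlap. The highest of them was Havcr1, at a mean of 420 against 863 FPKM. Mean Lcn2 and Vcam1 were lower too, but mean Krt20 (93.8 against 49.95 FPKM) and Sox9 (19.2 against 16.25 FPKM) were higher. Neutrophil markers summed to 559 FPKM in wild-type UUO replicate 3, the control with the lowest Insig1, and to 14.7 to 61.1 FPKM in the other libraries. Adipocyte markers summed to 18.2 FPKM in β-catenin-/- replicate 1 and to under 1 FPKM in the others. Adrenal cortex markers, which mark steroid-making tissue, summed to 1.09 to 2.16 FPKM over the libraries. Most of this was Star, at group means of 1.35 to 1.66 FPKM, and the other markers of that list were near 0. The part of these cell markers in the cholesterol results was not tested.

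**Figure D4:**
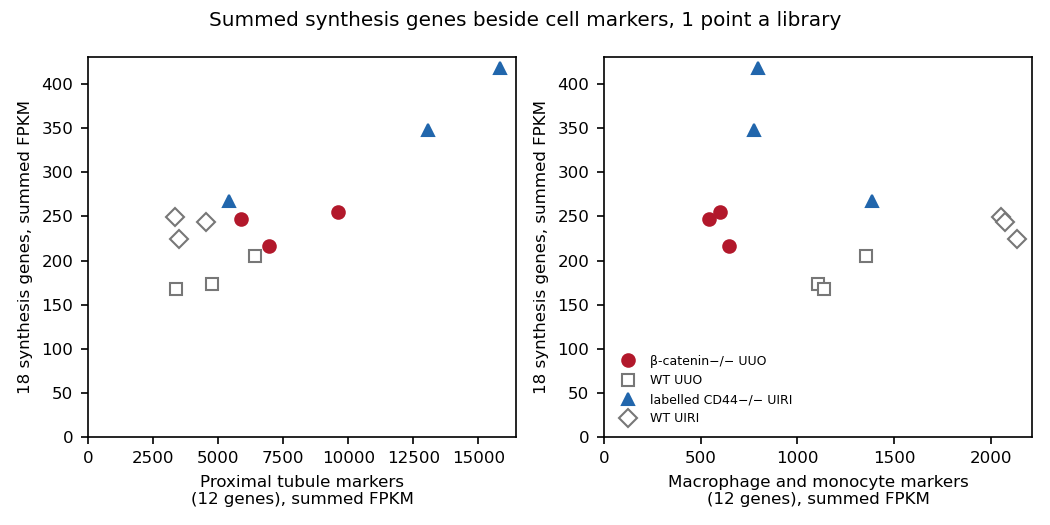
Summed FPKM of the 18 synthesis genes (vertical axis) beside the summed FPKM of 12 proximal tubule markers (left) and 12 macrophage and monocyte markers (right), with 1 point for each of the 12 libraries. Most of the proximal tubule sum is Kap. Of the libraries labelled CD44-/-, replicate 2 (268 FPKM of synthesis genes) lies nearest the wild-type UIRI libraries in both panels, and the β-catenin-/- libraries (217 to 255 FPKM) lie above the wild-type UUO libraries (168 to 205 FPKM).

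The third question was whether the 2 knockout effects differed for any member. In a limma fit over all 12 libraries, 0 of 30 members were called for the difference between the UUO effect and the UIRI effect, and 1 of all 16193 genes was (0.00618%). By voom the count was also 0, and at an unadjusted p under 0.05 it was 2 higher (Pmvk and Ebp) and 9 lower, against 6.98% and 6.61% of all genes. The 9 were Idi1, Fdft1, Sqle, Lss, Msmo1, Hsd17b7, Dhcr7, Insig1 and Srebf2. The smallest adjusted p was that of Sqle, whose effect was -0.17 after UUO and 0.78 after UIRI, a difference of -0.95 (SE 0.224, adjusted p = 0.153). Insig1 differed by -0.93 (SE 0.256, adjusted p = 0.202) and Idi1 by -1.03 (SE 0.334, adjusted p = 0.237). The 2 effects use separate controls. Injury and targeted gene differ together between them, so a difference cannot be assigned to either. Acat2, whose level is uncertain because it shares sequence with Acat3 and Tcp1, was called higher in both comparisons. Its effects differed by -0.01 (SE 0.194). Cyp51, Nsdhl, Scap and Stard4, with Acat2, were the 5 members in which every knockout or labelled library lay above every control in both tables. In each table alone this held for 19.6% of all genes after UUO and 19.1% after UIRI. Signs were opposite for 9 members, positive in both for 16 and negative in both for 5 (Npc1, Npc2, Soat1, Abca1 and Abcg1). The shares of all genes called, not overlapping or alike in sign in both comparisons were not counted, so these counts have no background.

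Beyond the members, 58 further genes of sterol metabolism were followed in 5 lists. After UUO 9 of the 55 tested were called higher and 4 lower, or 16.4% and 7.27%, beside 6.21% and 4.36% of all genes. After UIRI 12 of 54 were called higher and 1 lower, or 22.2% and 1.85%, beside 4.02% and 2.19% of all genes. In the list of acetyl-CoA supply and isoprenoid branches, 3 of 12 were called higher after UUO and 2 of 12 after UIRI. Acss2, which makes acetyl-CoA from acetate, was at 14.8 ± 0.689 against 7.70 ± 0.320 FPKM after UUO and at 13.9 ± 3.26 against 7.08 ± 0.0696 FPKM after UIRI (SD, n = 3), with log2 fold changes of 0.86 and 0.85. Slc25a1, the mitochondrial citrate carrier, was higher in both too, with log2 fold changes of 0.86 after UUO and 0.68 after UIRI, and Aacs, acetoacetyl-CoA synthetase, was higher after UUO (0.74). After UIRI Aacs was at 29.9 ± 17.4 against 9.64 ± 0.351 FPKM (SD, n = 3), with a log2 fold change of 1.35 that did not pass the limma test (adjusted p = 0.106).

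Of 10 genes of SREBP processing and sterol-regulated degradation, 2 were called higher in each comparison. Among them were Tmem97, a sterol-responsive membrane protein, after UUO (log2 fold change 0.79) and Erlin1, a protein of endoplasmic reticulum degradation, after UIRI (0.74). Of 11 lipoprotein and scavenger receptors, 1 was called higher and 2 lower after UUO, and 4 were called higher after UIRI. Lrp2 (megalin), the endocytic receptor of the proximal tubule, was at 54.3 ± 5.24 against 29.0 ± 7.39 FPKM after UUO and 50.1 ± 14.8 against 19.9 ± 3.58 FPKM after UIRI (SD, n = 3). Its partner Cubn, the fatty acid receptor Cd36 and Vldlr were higher after UIRI, with log2 fold changes of 1.07, 1.63 and 0.69, and Lrp1 and Olr1 were lower after UUO, by log2 fold changes of -0.90 and -1.40. Lrp2 and Cubn are also in the proximal tubule list above.

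Of 12 genes of sterol transport and ester turnover, 3 were called higher and 1 lower in each comparison. Osbpl1a, an oxysterol-binding protein, was higher in both (log2 fold changes 0.60 and 0.44). Nceh1, which hydrolyses cholesterol esters, and Gramd1b, a sterol carrier at membrane contacts, were higher after UUO (0.56 and 0.89), and the esterifying enzyme Soat2 was lower (-0.70). Lipa, the lysosomal lipase, and Stard5 were higher after UIRI (0.67 and 0.56), and Gramd1a was lower (-0.50). Of the 13 oxysterol, bile acid and LXR target genes, 10 and 9 were tested in the 2 comparisons. Pltp, the phospholipid transfer protein and an LXR target, was called lower after UUO (-1.28), and Lpcat3, a phospholipid-remodelling enzyme, was called higher after UIRI (0.50) and had a log2 fold change of 0.54 after UUO (adjusted p = 0.0558).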

How the data were processed

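FPKM were deposited by the authors in 2 tables. Per the labels and the study's methods, HISAT2 2.0.5 mapped reads to mouse build GRCm38/mm10 and featureCounts 1.5.0-p3 counted them per gene. The 12 columns were mapped to samples by name. Wild-type columns, named alike in both tables, were assigned by the knockout beside them. FPKM times gene length gave whole reads (within 0.01) for at least 99.97% of values in every library. Their depth term equals median-of-ratios factors.

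Genes whose libraries averaged 0.5 FPKM or more were fitted with limma 3.58.1 (R 4.3.3) on log2(FPKM + 1), with an intensity trend, per table, and over 12 libraries for the difference of effects. Calls are at a Benjamini-Hochberg adjusted p under 0.05. Alternatives are a pseudocount of 0.1, other filters, TPM, no trend, voom with TMM, a replicate block and each library left out. Replicates were taken as separate mice, per the series' design and the study. With 3 against 3, an exact permutation test cannot go below p = 0.10. The named genes were all members, Ctnnb1, Cd44, the called genes of each pathway list and the 3 highest genes of the marker lists described. Values of some called list genes are not reported here. The members and lists were chosen with earlier results of these data known. RefSeq and GENCODE M21 gave promoters and overlaps. Strandedness is not given in the sources used here, so reads shared by Fdft1 and Ctsb, on opposite strands, cannot be separated. Tm7sf2 and Vps51 overlap on the same strand, so strand would not separate their reads. Members that share sequence or exons with other genes are uncertain. Values were tabulated with Python 3.11.15 and pandas 2.3.3. No comparison columns were used.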

Additional observations from a re-analysis of the deposited data

How the results depend on the processing

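With no filter the members called after UUO were 0 higher and 0 lower, and after UIRI 1 higher. Over all genes, 280 of 29604 were then called higher and 193 lower after UUO. After UIRI 43 of 29532 were called higher and 20 lower. Rescaled to TPM, 0 members were higher after UUO, with a median of 0.0198, and 1 after UIRI, with a median of 0.22. Over all genes TPM called 487 higher after UUO and 153 after UIRI. Under TPM the signs of Mvk (-0.0295), Lss (-0.0047), Dhcr7 (-0.0542) and Insig2 (-0.0492) after UUO reversed. So did those of the difference for Hmgcs1 (-0.0663) and Scap (-0.0625). By voom the difference reversed for Acat2 (0.0242) and Npc1 (0.0227). The replicate block called 4 members higher (Cyp51, Acat2, Pmvk and Ebp) and 0 lower after UUO and 0 higher after UIRI. Over all genes it called 992 higher and 675 lower of 16166 after UUO. After UIRI it called 0 higher and 0 lower of 16113, so the members could not stand out there. Same-number correlations were 0.08, 0.20 and 0.04 after UUO and -0.14, -0.03 and -0.03 after UIRI. Different-number ones ran from -0.16 to 0.08 after UUO and from -0.11 to 0.15 after UIRI. So few values cannot settle whether libraries of the same number were paired. Leaving out each library gave 0 to 6 higher and 0 to 1 lower members with a median of 0.15 to 0.24 after UUO. After UIRI it gave 0 to 14 higher and 0 to 1 lower members with a median of 0.26 to 0.43. Over all genes it called 130 to 1631 higher and 98 to 818 lower after UUO, and 0 to 1417 higher and 1 to 763 lower after UIRI. For the difference it gave 0 member calls with a median of -0.24 to -0.0602. It reversed the log2 fold changes, after UUO, of Fdft1 (-0.14 to 0.0357), Sc5d (-0.12 to 0.0179), Insig1 (-0.0326 to 0.41), Srebf2 (-0.17 to 0.0416) and Npc1 (-0.17 to 0.072), after UIRI, of Ebp (-0.0128 to 0.35), Mylip (-0.18 to 0.0649), Npc1 (-0.15 to 0.0438) and Soat1 (-0.10 to 0.053), and, for the difference, of Hmgcs1 (-0.28 to 0.23), Mvd (-0.39 to 0.11), Cyp51 (-0.13 to 0.29), Acat2 (-0.12 to 0.11), Insig2 (-0.12 to 0.0127), Scap (-0.0854 to 0.13), Npc1 (-0.13 to 0.11), Npc2 (-0.0005 to 0.24) and Nr1h3 (-0.24 to 0.0812). The cause was not tested. Median-of-ratios scaling was not run, since the deposited depth term already equals it. The 3 libraries per group limit what can be called, and Fdps was too low to test.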
